A study of Homo sapiens with 12 samples.

Results

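The 10 genes described here belong to the extrinsic, receptor-driven death pathway and were measured as RNA in EndoC-βH3 cells, in which death signalling itself was not tested. They include the ligand TRAIL (TNFSF10), its receptors (TNFRSF10A, TNFRSF10B, TNFRSF10C and TNFRSF10D) and the FAS and TNF receptors (FAS, TNFRSF1A). The rest are the adaptor, initiator caspase and caspase inhibitor that act below the receptors (FADD, CASP8, CFLAR). The genes were taken by gene symbol, and all 10 of 10 had a row among the 35337 rows of the table. EndoC-βH3 is a human line with beta-cell properties derived from fetal pancreas. It proliferates through introduced hTERT and SV40 large T genes, which a tamoxifen-activated Cre can excise, and all samples carried the genotype label WT. The senescent group was 6 samples of cells kept for 3 weeks in 4-hydroxy tamoxifen, the active form of the drug, and the non-senescent group was 6 samples of control cells. By the letter in the sample titles, taken as the batch, 2 libraries per group belonged to A and 4 to B. The comparison asked which transcripts differ once the cells are senescent. It rests on 1 cell line, and drug exposure, loss of the transgenes and senescence cannot be told apart. The labels do not say that the samples of a group were separate cultures, so p-values measure the spread between these samples, which may be technical.

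TRAIL is a TNF family ligand that trimerises its receptors on the surface of a target cell. TNFRSF10A (DR4) and TNFRSF10B (DR5) carry a cytoplasmic death domain, to which FADD binds and brings in caspase-8, while TNFRSF10C and TNFRSF10D lack a working death domain and are known as decoys. FAS and TNFRSF1A are death-domain receptors for other ligands of the family. CFLAR (c-FLIP) resembles caspase-8, joins the same complex and limits its activation. Active caspase-8 cleaves the effector caspases, or BID, which carries the signal to the mitochondrion. In islets, it is studied as a route by which immune cells can kill beta cells.

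CEL-seq2 reads the 3′ end of each polyadenylated transcript. The deposited values were reads per gene divided by a size factor per library and are called normalised read counts here, and whole reads could be recovered from them. Library totals were 8873569 to 17106776 reads in batch A and 4672924 to 7063264 in batch B. The labels were checked on genes of known behaviour: CDKN1A, the cell cycle inhibitor p21, was at 45.1 ± 20.2 (SD, n = 6) in non-senescent and 981 ± 661 (SD, n = 6) in senescent cells, and MKI67, a proliferation marker, was at 537 ± 138 and 73.6 ± 11.0 (SD, n = 6 each). TERT was at 97.3 ± 36.0 and 113 ± 23.6 (SD, n = 6 each), and whether reads of the introduced hTERT gene were counted there is not given in the sources used here. Together, the 9 beta-cell markers took 74226 to 93469 ppm of the reads in non-senescent and 87146 to 118294 ppm in senescent libraries, INS included. Most of these were reads of CHGA, which had 7553442 over all libraries against 1029318 for INS and was not called. Of the 9 markers, 4 were called higher and 1 lower, PCSK1 (-1.06 on the log2 scale). Leukocyte markers summed to 2.93 to 7.49 ppm and 1.75 to 5.66 ppm, with CD3E at 0 reads and PTPRC called lower (-1.58 on the log2 scale), and fibroblast markers to 1.80 to 4.07 ppm and 1.58 to 3.69 ppm. Acinar markers, almost all of them CPA1 reads, summed to 4.77 to 8.18 ppm in non-senescent and 18.7 to 33.6 ppm in senescent libraries, and ductal markers to 33.6 to 53.7 ppm and 10.1 to 21.3 ppm. Markers of other islet endocrine cells summed to 23835 to 40842 ppm in non-senescent and 15035 to 19310 ppm in senescent libraries, with GCG (-1.30) and SST (-0.64) called lower. The part of these markers in the results was not tested.

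Most of the 10 genes were near the limit of detection. Only 3 of the 10 genes (TNFSF10, FADD and CFLAR) reached the minimum for the main test, a mean of 5 normalised reads over the 12 libraries. A gene was called at a limma adjusted p under 0.1, adjusted over all tested genes, together with a fold change over 1.5. Of these 3, 1 was called higher in senescent cells and 0 lower, in a table where 11.6% of 13847 tested genes were called higher and 11.8% lower. By limma, 2 of the 3 had an unadjusted p under 0.05, TNFSF10 and FADD, and edgeR and DESeq2 also called 1 higher and 0 lower. The fold changes are on the log2(normalised read count + 1) scale, on which low genes change by less than their reads do. The other 7 were described by their reads and by fits without the minimum, in which 22707 genes with a read in any library were tested and 7.24% were called higher and 7.67% lower by limma. In bulk RNA, fewer cells expressing a gene and less of its RNA per cell cannot be told apart.

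TNFSF10, the TRAIL ligand, rose in senescent cells in both batches. It lies on the minus strand of chromosome 3 (chr3:172505508-172523475, GRCh38, GENCODE v44). In batch A its normalised read counts were 9.45 and 9.54 in the non-senescent libraries and 22.4 and 23.6 in the senescent libraries. In batch B they were 13.6, 20.6, 20.5 and 36.0 in the non-senescent and 59.4, 63.0, 68.7 and 61.0 in the senescent libraries. Every senescent library lay above every non-senescent library of its own batch, and the batches differed in level in both groups. Over both batches the group means were 18.3 ± 10.0 and 49.7 ± 20.9 (SD, n = 6 each). The log2 fold change was 1.41 (SE 0.22, limma adjusted p 7.73e-05), a fold of 2.65. Batch A gave 1.19 and batch B 1.51, and the difference between batches was within error (interaction 0.32, SE 0.47, limma adjusted p 0.809). edgeR on the recovered reads of the same genes gave 1.39 (adjusted p 6.37e-05). In reads, 96 of 41838457 in the non-senescent and 307 of 55935618 in the senescent libraries fell on the gene, a ratio of shares of 2.39 with an exact 95% counting interval of 1.90 to 3.04. Intervals of this kind cover counting error only, since the handling of molecular identifiers is not stated.

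**Figure D1:**
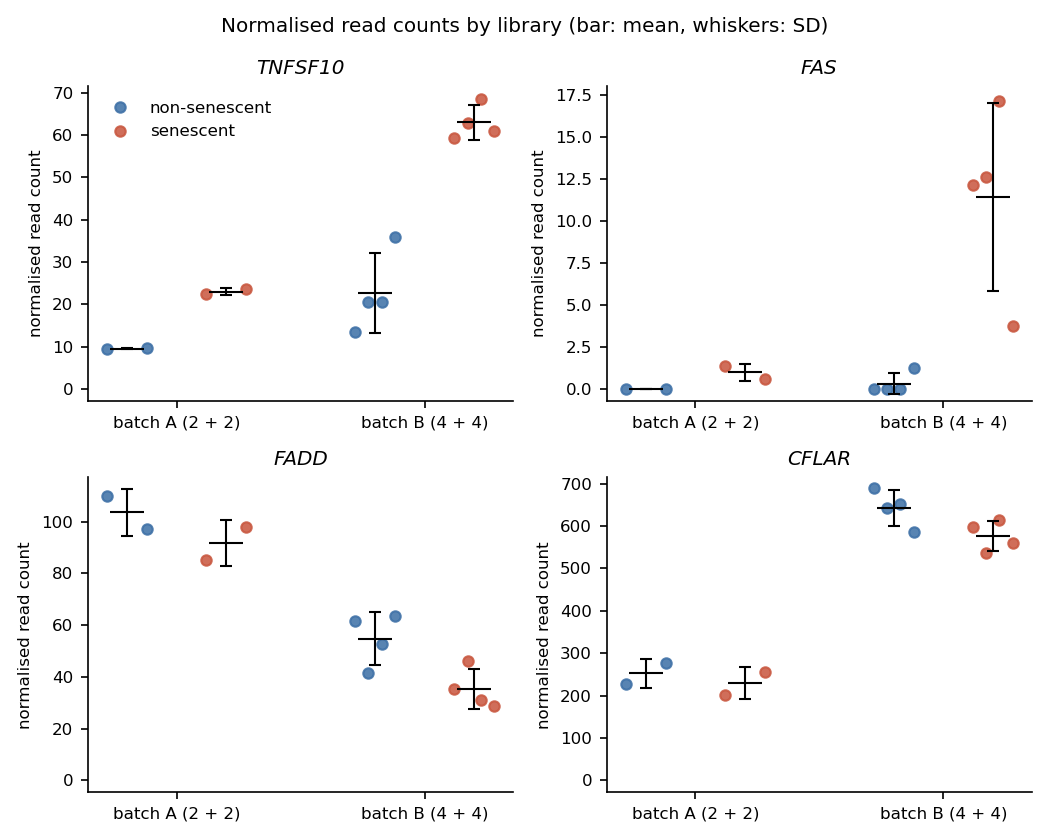
Normalised read count (y axis) of TNFSF10, FAS, FADD and CFLAR in each library, by batch (x axis, number of non-senescent plus senescent libraries), with non-senescent libraries in blue and senescent in red; bars are means and whiskers SD. The senescent libraries of TNFSF10 sit at 22.4 to 23.6 in batch A and 59.4 to 68.7 in batch B, above all non-senescent libraries of the same batch, while the CFLAR groups overlap in both batches and differ mainly by batch.

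The promoters of TNFSF10 and FAS, the ligand and the receptor with more reads in senescent cells, are shown for the letters around their start sites. Windows of 250 bases before to 50 bases after a RefSeq start site (GRCh38.p14) were at hand for 6 of the 10 genes, and were searched for 8 short motifs. The capitals mark the matches. For TNFSF10 (chr3:172523381-172523680, minus strand) these are an interferon response element core (GAAA, any 2 bases, GAAA), read on the opposite strand at -187 to -178, and the TATA box TATAAA at -31 to -26. For the most upstream FAS window (chr10:88990548-88990847, plus strand) they are the AP-1 letters TGANTCA at -242 to -236 and the GC box GGGCGG at -60 to -55. For the most downstream FAS window (chr10:88991181-88991480, plus strand) they are a p53 half-site at -122 to -113 and a GC box on each strand, at -63 to -58 and at -52 to -47. No match overlapped another.
TNFSF10: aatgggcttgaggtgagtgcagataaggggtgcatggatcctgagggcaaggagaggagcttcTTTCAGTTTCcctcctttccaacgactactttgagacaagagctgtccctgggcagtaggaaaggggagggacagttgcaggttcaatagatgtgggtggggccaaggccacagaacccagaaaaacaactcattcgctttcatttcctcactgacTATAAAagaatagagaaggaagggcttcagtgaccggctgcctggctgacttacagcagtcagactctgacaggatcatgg
FAS, upstream window: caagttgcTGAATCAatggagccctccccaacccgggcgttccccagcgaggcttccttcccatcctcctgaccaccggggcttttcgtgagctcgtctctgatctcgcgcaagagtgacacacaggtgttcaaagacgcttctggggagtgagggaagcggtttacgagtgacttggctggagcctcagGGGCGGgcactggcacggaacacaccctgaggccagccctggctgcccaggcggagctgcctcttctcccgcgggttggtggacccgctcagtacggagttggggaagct
FAS, downstream window: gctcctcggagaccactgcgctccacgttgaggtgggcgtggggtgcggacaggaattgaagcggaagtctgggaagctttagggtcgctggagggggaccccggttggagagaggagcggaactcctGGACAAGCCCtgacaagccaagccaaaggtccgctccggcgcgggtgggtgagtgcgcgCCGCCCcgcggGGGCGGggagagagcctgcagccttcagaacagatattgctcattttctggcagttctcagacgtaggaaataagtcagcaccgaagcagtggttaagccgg
Of 34796 promoter windows of this length, 3.57% held the interferon core on either strand, 7.37% the TATA box on the gene's strand, 7.73% the AP-1 letters, 6.65% a p53 half-site and 44.9% a GC box. The other motifs searched on both strands were TTCNNNGAA (7.67% of windows), GTAAACA (3.42%) and the NF-kB letters GGGA, any base, TTTCC (0.56%), none of which matched in these 3 windows. Matches were not confined to the genes shown. CASP8, with no detectable difference between the groups, held the interferon core at -3 to 7 and TTCNNNGAA at -200 to -192 in its first window. Its second window held a p53 half-site at -121 to -112. FADD and CFLAR held GC boxes and AP-1 letters. A match is a description of letters and not a site in use.

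The receptors for TRAIL were few in reads. Their 4 genes lie side by side over 205 kb of chromosome 8, and only TNFRSF10A had reads in every library. TNFRSF10A (DR4; chr8:23190452-23225102, minus strand) had 4 and 2 reads in the non-senescent and 3 and 2 in the senescent libraries of batch A. In batch B it had 5, 5, 8 and 7 reads in the non-senescent and 3, 5, 2 and 1 in the senescent libraries. As normalised read counts these were 1.59 to 11.7 (median 7.21) in non-senescent and 1.21 to 5.25 (median 1.82) in senescent cells. The normalised values did not overlap within either batch. The reads overlapped in batch A and shared the value 5 in batch B, so this separation appeared only after division by the size factors. Among genes above the minimum, 11.9% were lower without overlap in both batches. The pooled share of reads in senescent cells was 0.386 times that in non-senescent cells (exact 95% counting interval 0.197 to 0.728). Within batch A, with 6 and 5 reads, the interval was 0.144 to 2.35, and within batch B, with 25 and 11 reads, it was 0.153 to 0.726. Without the minimum, the limma log2 fold change was -0.99 (SE 0.37, adjusted p 0.0739), a call, whereas edgeR gave -1.17 (adjusted p 0.263) and DESeq2 -1.21 (adjusted p 0.122) on the same reads, neither a call. TNFRSF10A was thus called lower by limma alone, and of 11 other settings without the minimum 4 kept the call.

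The other 3 TRAIL receptors had too few reads for a comparison. TNFRSF10B (DR5; chr8:23020133-23069031, minus strand) had 2 reads in 1 non-senescent library and 2, 2 and 1 reads in 3 senescent libraries, with 0 in the rest. Its ratio of read shares was 1.87 with an interval of 0.306 to 19.6, so that a difference in either direction was not detectable at this depth. TNFRSF10D (DcR2; chr8:23135588-23164027, minus strand) had 1 read in each non-senescent library of batch A and 2 reads in 1 senescent library of batch B, a ratio of 0.748 (interval 0.0542 to 10.3). TNFRSF10C (DcR1; chr8:23102921-23117445, plus strand) had 0 reads in all 12 libraries, which allows up to 0.0717 ppm in the non-senescent and 0.0536 ppm in the senescent group when 3 reads are taken as the limit. Without the minimum, the limma log2 fold change was 0.29 (SE 0.39, adjusted p 0.636) for TNFRSF10B and 0.03 (SE 0.29, adjusted p 0.960) for TNFRSF10D. TNFRSF10B overlaps RHOBTB2 on the opposite strand, a gene with 113 reads in the 6 control libraries and 100 in the 6 treated ones, and whether counting used strand is not given in the sources used here.

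The 3′ ends of these related receptors were largely distinct in sequence. Of the 1410 different 31-base words in the last 500 bases of the protein-coding transcripts of TNFRSF10A, 6 also occurred in transcripts of another gene, which was TNFRSF10B in each case. For TNFRSF10D the number was 14 of 470, and for TNFRSF10C it was 0 of 470. For TNFRSF10B, 122 of 940 words were found in transcripts of 1920 other genes. Salmon divides reads among similar transcripts, and whether this moved reads of these genes was not tested. For TNFSF10 itself, 36 of 624 words occurred elsewhere.

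FAS, the receptor for FAS ligand, had 1 read in the 6 non-senescent libraries together and at least 1 read in every senescent library. It lies on the plus strand of chromosome 10 (chr10:88953813-89029605). In batch A it had 0 reads in both non-senescent libraries and 3 and 1 in the senescent libraries. In batch B it had 0, 0, 0 and 1 reads in the non-senescent and 10, 12, 15 and 3 in the senescent libraries. The groups did not overlap within either batch, as for 11.9% of the genes above the minimum in this direction. The highest values were in batch B, where 3 of 4 senescent libraries had 10 or more reads. Normalised read counts were 0 to 1.24 (median 0) in non-senescent and 0.604 to 17.2 (median 7.93) in senescent cells. With 1 read of 41838457 against 44 of 55935618, the ratio of read shares was 32.9, with an exact 95% counting interval of 5.61 to 1329. In batch A alone, 0 against 4 reads gave an interval that began at 0.474, so a rise was not detectable there by reads.

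Without the minimum, FAS was called higher by limma (log2 fold change 2.44, SE 0.46, adjusted p 0.00124), by edgeR (4.43, adjusted p 1.36e-04) and by DESeq2 (4.23, adjusted p 3.69e-04). edgeR called 7.76% of the 22707 genes higher and 8.14% lower. With so few reads the sizes of these changes depend on the small number each tool adds to 0 reads. The difference between batches did not pass (interaction 2.23, SE 0.80, limma adjusted p 0.260), and the limma call was lost in batch A alone (adjusted p 0.142). The genes that overlap FAS did not follow it: STAMBPL1, on the same strand, went from 85 reads over the non-senescent to 118 over the senescent libraries, and ACTA2, on the opposite strand, from 186 to 150. None of the 2890 words of its 3′ ends occurred in transcripts of another gene.

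TNFRSF1A, the main receptor for TNF, was detected in some libraries of both groups. The gene is on the minus strand of chromosome 12 (chr12:6328757-6342114). Its reads were 0 and 0 in non-senescent and 1 and 1 in senescent libraries of batch A, and 0, 2, 3 and 0 against 3, 3, 0 and 0 in batch B. The groups overlapped in batch B, and the ratio of read shares was 1.20 (exact 95% counting interval 0.345 to 4.65). The limma log2 fold change without the minimum was 0.19 (SE 0.51, adjusted p 0.818). As for its ligand, TNF had 10 reads in all non-senescent and 4 in all senescent libraries. FASLG, the ligand of FAS, had 0 and 2 reads.

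**Figure D2:**
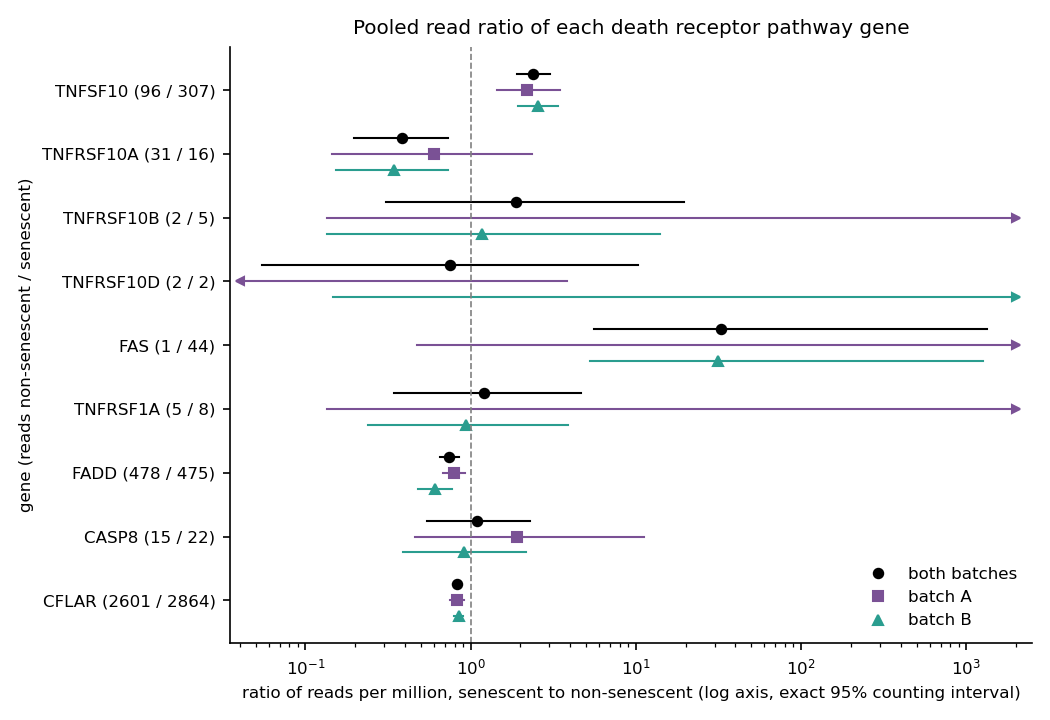
Share of reads in senescent cells divided by that in non-senescent cells (x axis, log scale) with its exact 95% counting interval for 9 of the 10 genes (y axis, with reads in each group), pooled over both batches (circles), in batch A (squares) and in batch B (triangles); arrows mark intervals that run past the axis, and a line without a symbol has 0 reads in a group. TNFRSF10C, with 0 reads, is left out. The intervals of TNFSF10 and FAS lie above 1 and those of TNFRSF10A, FADD and CFLAR below 1 over both batches, and TNFRSF10B, TNFRSF10D, TNFRSF1A and CASP8 include 1.

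FADD, the adaptor that links the receptors to caspase-8, was lower in senescent cells by less than the size needed for a call. The gene is on the plus strand of chromosome 11 (chr11:70203296-70207390). In batch A its normalised read counts were 110 and 97.0 in the non-senescent and 85.3 and 97.8 in the senescent libraries. In batch B they were 61.7, 41.3, 52.6 and 63.4 in the non-senescent and 35.1, 46.2, 30.9 and 28.6 in the senescent libraries. The groups overlapped in both batches. The log2 fold change was -0.48 (SE 0.17, limma adjusted p 0.0365), a fold of 1.39, which falls short of 1.5. It was -0.18 within batch A and -0.63 within batch B, where alone it was called (limma adjusted p 0.0706), and the difference between batches was within error (interaction -0.45, SE 0.35, limma adjusted p 0.600). In reads, 478 against 475 gave a ratio of shares of 0.743 (exact 95% counting interval 0.653 to 0.846).

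CASP8, the initiator caspase, showed no detectable difference. The gene is on the plus strand of chromosome 2 (chr2:201233443-201361836). Its reads were 3 and 0 in non-senescent and 7 and 1 in senescent libraries of batch A, and 3, 0, 7 and 2 against 4, 4, 3 and 3 in batch B. The groups overlapped in both batches, at 3.15 ± 3.86 and 3.33 ± 1.46 normalised read counts (SD, n = 6 each). The ratio of read shares was 1.10 (exact 95% counting interval 0.544 to 2.27), an interval that includes 1. Without the minimum the limma log2 fold change was 0.48 (SE 0.52, adjusted p 0.575). Of the 2300 words of its 3′ ends, 206 (8.96%) occurred in transcripts of other genes.

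CFLAR, the inhibitor of caspase-8 activation, had the most reads of the 10 genes and differed little between the groups. It lies near CASP8 on chromosome 2 (chr2:201116154-201176687, plus strand). In batch A its normalised read counts were 228 and 277 in the non-senescent and 202 and 255 in the senescent libraries. In batch B they were 690, 643, 653 and 585 in the non-senescent and 599, 536, 613 and 561 in the senescent libraries. The groups overlapped in both batches, and every library of batch B lay above every library of batch A. The log2 fold change was -0.15 (95% interval -0.32 to 0.01, SE 0.08, limma adjusted p 0.174), with -0.14 in the first batch and -0.15 in the second. The ratio of read shares was 0.824, with an exact 95% counting interval of 0.781 to 0.869. This ratio divides by library totals, whereas the fold change above uses the size factors. With every library scaled to the same total, the log2 fold change was -0.26 (limma adjusted p 0.0220), also short of a call. The annotation gives 17 protein-coding CFLAR transcripts with 17 different 3′ ends, and the table does not separate them, so the long and short forms of the protein were not resolved.

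The response of the 3 tested genes did not differ between batches by the interaction test (0 of 3 at an adjusted p under 0.1, against 4.21% of all tested genes). TNFSF10 was the 1 of the 3 with separate groups in both batches, a pattern shown by 11.9% of tested genes in the direction of senescent cells and 11.9% in the other. Levels of different genes are not compared here as amounts of RNA, since 3′ reads of a gene depend on its transcript ends.

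Ratios of paired genes within a library, taken after adding 1 to each normalised read count, gave no difference past the test. The log2 ratio of CFLAR to CASP8 was 7.35 ± 1.24 in non-senescent and 6.72 ± 0.59 in senescent cells (SD), a difference of -0.63 (exact permutation within batch, two-sided, n = 6 each, p = 0.333, adjusted over 3 ratios 0.5). It ran from -1.52 with 0.1 added to -0.22 with 8 added, and from -0.96 to -0.23 without 1 library. TNFRSF10B to TNFRSF10D differed by 0.26 (exact permutation p = 0.643, adjusted 0.643), and by 1.33 with 0.1 added and 0.02 with 8 added. The ratio of TNFRSF10A to TNFRSF10B, the receptors with a death domain, was 2.35 ± 1.09 and 1.07 ± 0.83 (SD), lower by a difference of -1.28 in senescent cells (exact permutation p = 0.0381, adjusted 0.114). The design had 420 arrangements, and the smallest p it allowed was 0.00476.

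The rest of the pathway was taken from lists by role with 52 further genes, of which 45 could be tested. Of these, 3 were called higher and 9 lower in senescent cells, where 11.6% of all 13847 tested genes were called higher and 11.8% lower. The lists by role below are small, and their counts are to be read against these shares. The median log2 fold change of the 45 was -0.16 against 0.01 for all tested genes. With every library scaled to the same total the median of all tested genes was -0.09. The remaining 7 genes were below the minimum, among them TNF and FASLG, and LTA, NGFR, EDAR, BIRC7 and RIPK3 had 0 reads.

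**Figure D3:**
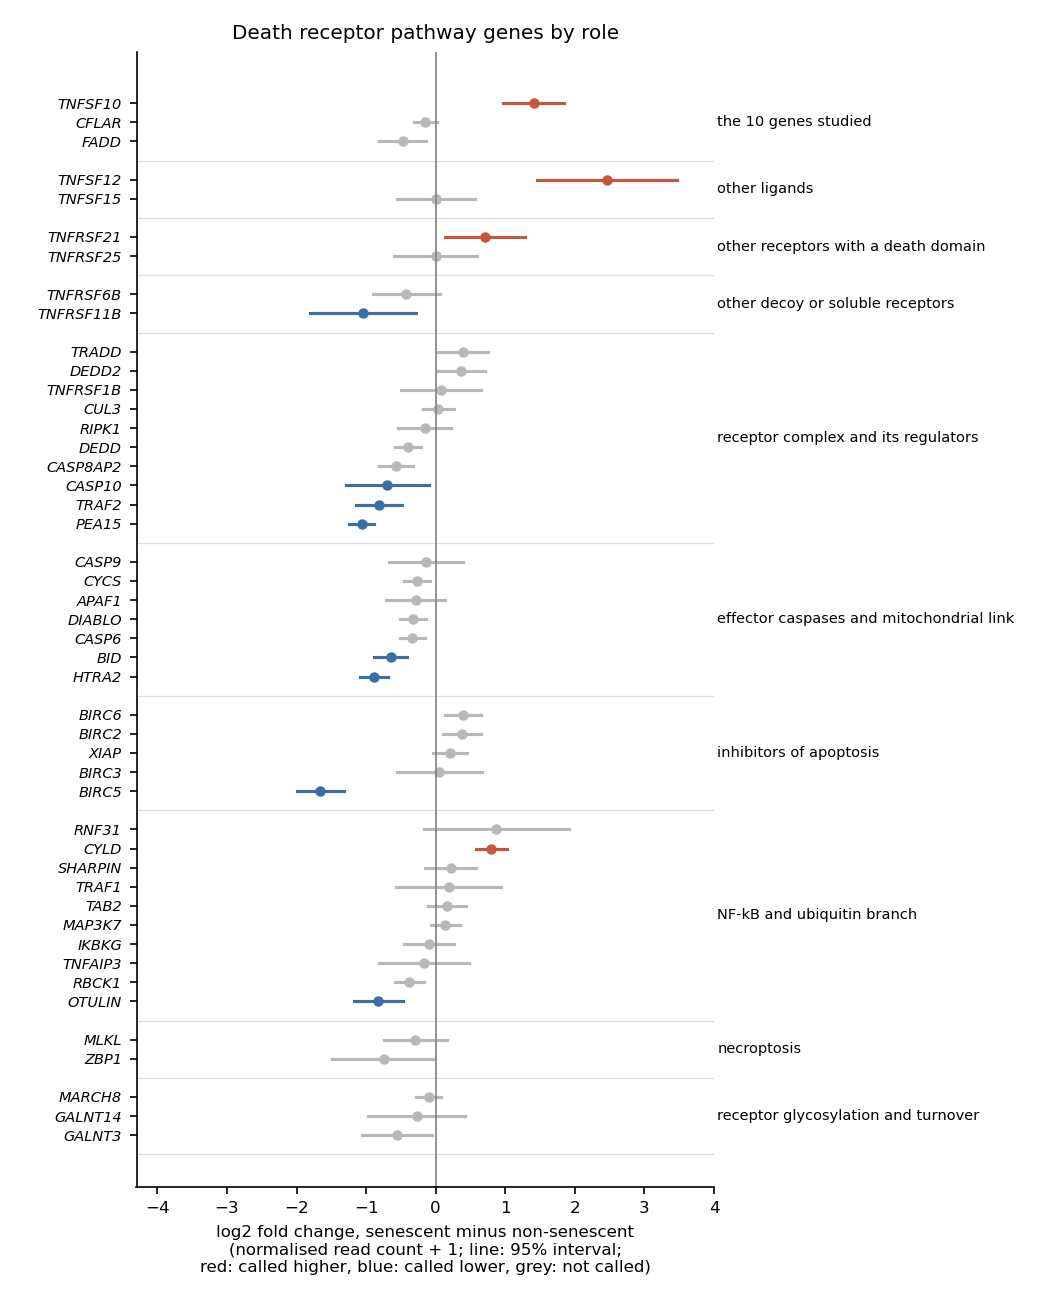
Log2 fold change of senescent minus non-senescent cells on log2(normalised read count + 1) (x axis) with its 95% interval for the 3 tested genes of the 10 and other tested pathway genes (y axis), grouped by role; red marks genes called higher, blue genes called lower and grey genes not called. TNFSF10 (1.41) and TNFSF12 (2.46) stand to the right among the ligands, and the called genes of the receptor complex and the effector caspases are all on the left.

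Among the other ligands, 1 of 2 tested rose, TNFSF12 (TWEAK), a ligand of the TNF family with a receptor of its own. Its reads were uneven: 6 and 2 in non-senescent and 30 and 24 in senescent libraries of batch A, and 43, 28, 3 and 78 against 105, 376, 209 and 125 in batch B. The log2 fold change was 2.46 (SE 0.51, limma adjusted p 0.00108), with groups that did not overlap in either batch. The readthrough gene TNFSF12-TNFSF13 overlaps it on the same strand and had 0 reads. TNFSF15 was at 0.00 (SE 0.29, limma adjusted p 0.997). Of 2 other receptors with a death domain 1 was called higher, and of 2 decoy or soluble receptors 1 was called lower. These are TNFRSF21 (DR6) and TNFRSF11B (osteoprotegerin, which also binds TRAIL), both named after their values were seen. TNFRSF21 was lower in senescent cells in batch A (-0.58) and higher in batch B (1.35), a difference past the interaction test (1.92, SE 0.42, limma adjusted p 0.0258), so that its pooled value of 0.71 (SE 0.29, limma adjusted p 0.0671) describes neither batch. The pooled call was also lost without non-senescent B1 or B2 or without any 1 senescent library of batch B (0.50 to 0.66). TNFRSF11B had a log2 fold change of -1.05 (SE 0.39, limma adjusted p 0.0418), on 75 reads in all non-senescent and 42 in all senescent libraries.

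In the receptor complex and among its regulators, 3 of 10 tested genes were lower and 0 higher. PEA15, a death-effector-domain protein that binds FADD and caspase-8, fell from 799 ± 198 to 401 ± 177 normalised read counts (SD, n = 6 each). In batch B it was at 607 to 724 in the non-senescent and at 267 to 306 in the senescent libraries. Its log2 fold change was -1.06 (SE 0.09, limma adjusted p 8.43e-08). TRAF2, an adaptor of TNF receptors that recruits ubiquitin ligases, had a log2 fold change of -0.81 (SE 0.17, limma adjusted p 0.00106). CASP10, the relative and neighbour of CASP8 and named after its values were seen, was at -0.70 (SE 0.30, limma adjusted p 0.0812), and its call was lost in 9 of the 12 fits that left out 1 library (-0.72 to -0.54), and kept only without non-senescent B2, senescent B1 or senescent B4. The other 7, with RIPK1 and TRADD among them, were not called.

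Of the effector caspases and the mitochondrial link, 3 of 9 tested genes were lower and 0 higher. BID, the substrate that connects caspase-8 to the mitochondrion, fell from 214 ± 26.9 to 136 ± 18.0 normalised read counts (SD, n = 6 each), a log2 fold change of -0.65 (SE 0.12, limma adjusted p 3.56e-04). HTRA2, a mitochondrial protease released in apoptosis, fell from 350 ± 43.4 to 188 ± 17.3 (SD, n = 6 each), a log2 fold change of -0.89 (SE 0.10, limma adjusted p 2.42e-06).

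Among inhibitors of apoptosis, 1 of 5 tested genes was lower and 0 higher. BIRC5 (survivin), which is also a mitotic protein, was at 210 ± 37.1 and 70.3 ± 26.1 normalised read counts (SD, n = 6 each), a log2 fold change of -1.66 (SE 0.17, limma adjusted p 7.48e-07). It fell by 2.33 in batch A and by 1.32 in batch B on the log2 scale, and the proliferation marker MKI67 fell by 2.83 in the same libraries; its part in this result was not tested. XIAP, which binds and inhibits active caspases, was at 0.20 (SE 0.12, limma adjusted p 0.203). In the NF-kB and ubiquitin branch, 1 of 10 was higher and 1 lower. CYLD, a deubiquitinase that acts on RIPK1, rose, at 140 ± 78.7 in non-senescent and 232 ± 95.3 in senescent cells (normalised read counts, SD, n = 6 each), a log2 fold change of 0.80 (SE 0.11, limma adjusted p 2.33e-05). OTULIN, a deubiquitinase for linear chains named after its values were seen, had a log2 fold change of -0.82 (SE 0.18, limma adjusted p 0.00140). No gene was called among the 2 tested necroptosis genes, of which ZBP1 and MLKL had an unadjusted limma p of 0.0644 and 0.226, nor among the 3 tested genes of receptor glycosylation and turnover, of which GALNT3 alone had an unadjusted limma p under 0.05.

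**Figure D4:**
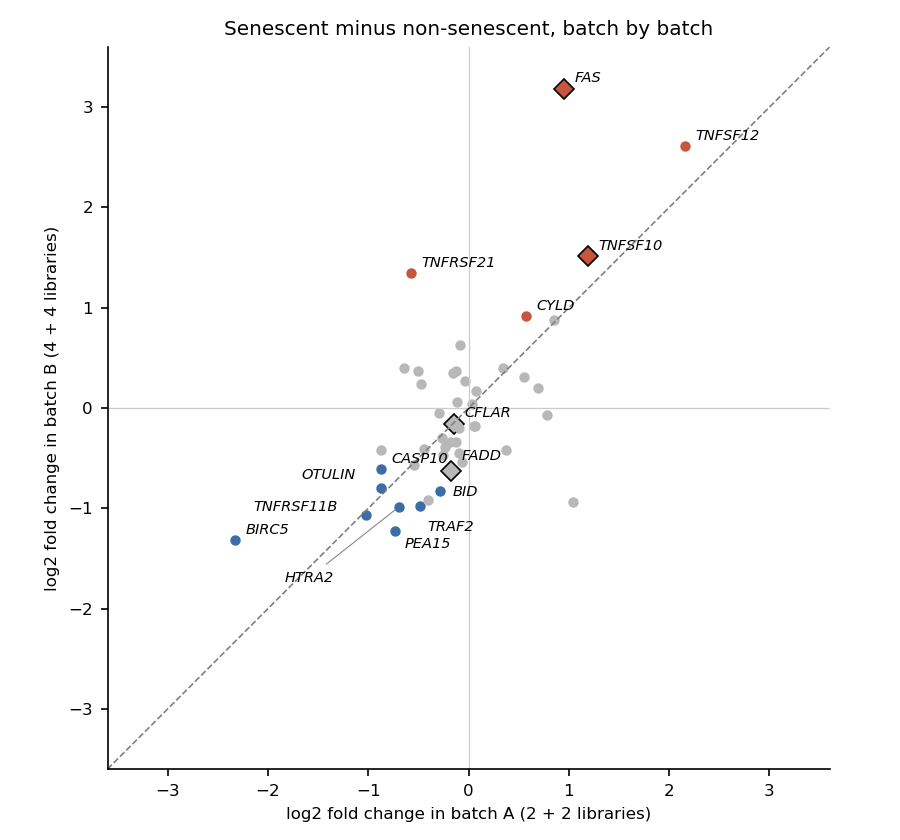
Log2 fold change of senescent minus non-senescent cells in batch A (x axis, 2 plus 2 libraries) against batch B (y axis, 4 plus 4 libraries) for tested pathway genes and FAS; diamonds are genes of the set of 10, circles other pathway genes, red and blue genes called higher and lower over both batches, grey not called, and the dashed line marks equal values. TNFSF10 lies near the line at 1.19 and 1.51, FAS has 0 reads in the non-senescent libraries of batch A and comes from the fit without a minimum, and TNFRSF21 has opposite signs in the batches.

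A pair of lists of genes outside the pathway were set beside it, since FAS and TNFRSF10B are known targets of p53 and TNFSF10 is known to respond to interferon. Of 9 tested p53 target genes 6 were called higher and 0 lower, with a median log2 fold change of 0.99. Over all tested genes the shares were 11.6% higher and 11.8% lower. CDKN1A was at 3.92 (SE 0.35, limma adjusted p 1.08e-07). By the interaction test 6 of the 9 responded differently in the batches, against 4.21% of all tested genes. CDKN1A was at 2.18 in batch A and 4.78 in batch B, while BTG2, whose response was larger in batch A, was at 1.84 and 1.07. Of the others, SESN1 (1.00), GDF15 (0.33), ZMAT3 (0.17) and RRM2B (0.05) were above 0 in batch A. MDM2 (-0.43), TP53INP1 (-0.57) and FDXR (-0.24) were below 0 there. In batch B every tested p53 target was above 0. Of 6 tested interferon response genes 0 were called by limma, with a median of -0.04, and edgeR without the minimum also called 0 of these 6. IFIT3, at -0.29 (SE 0.12, limma adjusted p 0.0672), alone had an unadjusted p under 0.05. Among the listed genes below the minimum, IFITM3, named after its values were seen, had 28 reads in all non-senescent and 3 in all senescent libraries and was called lower in the fit without the minimum (-1.90, SE 0.49, limma adjusted p 0.0106; edgeR adjusted p 0.00590). BBC3, the p53 target below the minimum and also named after its values were seen, had 1 read in all non-senescent and 35 in all senescent libraries. It was called higher in the same fit (2.44, SE 0.32, limma adjusted p 5.45e-05, edgeR adjusted p 0.00107). IRF1 was at 0.23 (SE 0.12, limma adjusted p 0.137). Whether p53 or interferon had a part in the values of FAS, TNFRSF10B or TNFSF10 was not tested.

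The genes whose levels over the 12 libraries, less the mean of each batch, were most like those of TNFSF10 were PCDHB14 (Pearson r 0.985), MKNK1 (0.982), PDZD3 (0.976), UNC5A (0.976) and TBRG1 (0.975), out of 11681 genes with a mean of at least 20. Their log2 fold changes ran from 0.78 for TBRG1 to 3.99 for PDZD3. The group difference is part of these correlations, and the libraries share their depth and batch.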

How the data were processed

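Poly(A) RNA of 6 senescent and 6 non-senescent EndoC-βH3 samples was measured by CEL-seq2. Per the labels, the authors used cutadapt for trimming, Salmon 0.13.1 with GRCh38 for quantification and DESeq2 for normalisation. The transcript annotation, strand setting and handling of molecular identifiers are not given in the sources used here. The deposited values are a signal: reads divided by 1 size factor per sample. All 196021 values above 0 were whole multiples of 1 read (100% within 1e-06 of a whole read), so reads were recovered. The deposited log2 fold changes and errors, test statistic (a score) and p-values are the authors' own comparison and were not used.

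Groups and batches came from sample titles. limma 3.58.1 (R 4.3.3, intensity trend) was run on log2(value + 1) with batch and group for genes with a mean of at least 5, with Benjamini-Hochberg adjustment over all tested genes. edgeR 4.0.16 and DESeq2 1.42.0 used the recovered reads. The limma and edgeR steps were tested on simulated data. Other settings were the pseudocount (0.1, 8), the filter (none, 1, 20), TMM or same-total scaling, no batch term, a replicate block, single batches and single libraries left out; those that join a lifted filter with another choice, and those for the other pathway genes, were chosen after seeing the data. The 10 genes and the lists were chosen with earlier results of these data known. Named were all 10 genes, and of the other pathway genes called genes with groups that lay apart, the same way round, in each batch; others are marked. Counts are over whole lists, and a few listed genes are neither named nor plotted here. No 2 libraries of a group and batch were duplicates (chi-square per degree of freedom 4.28 to 8.05). Symbols were used as in the table, with MARCHF8 as MARCH8. Positions came from GENCODE v44.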

Additional observations from a re-analysis of the deposited data

Results flagged for a closer look

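In 22 genes, the 2 groups of 6 libraries were each checked for a library far from the rest (44 checks). For continuous values, chance would flag about 1 in 20. That rate does not hold near 0 reads, where any 1 library with a read stands out from 5 at 0. In 3 cases a library stood out, each through 1 or 2 reads where the other 5 libraries of the group had 0. TNFRSF10B was at 3.01 normalised read counts (2 reads) in non-senescent B1, TNFRSF10D at 2.10 (2 reads) in senescent B2, and FAS at 1.24 (1 read) in non-senescent B4. None of these passes the limit of 3 reads.

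A pair of pathway genes responded differently in the batches by the limma interaction test. TNFRSF21 had a response 1.92 higher on the log2 scale in batch B (1.35) than in batch A (-0.58), with adjusted p 0.0258. BIRC5 had a response 1.01 higher in batch B (-1.32) than in batch A (-2.33), with adjusted p 0.0645.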

How the results depend on the processing

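Depth limited most of these results: 7 of the 10 genes had a mean below 5, and 1 read was worth up to 1.51 normalised read counts. TNFSF10 kept its direction and its call in all 24 other settings (1.11 to 1.55). FAS kept its call in all 12 fits without 1 library (2.22 to 2.70) and in 10 of 11 others, TNFRSF10A in all 12 (-1.11 to -0.80) and in 4 of 11.

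Members called higher numbered 2 without the filter (limma, edgeR and DESeq2) and with a minimum of 1, and members called lower numbered 1 in batch B alone (FADD), without the filter and with a minimum of 1 (TNFRSF10A, limma). All genes called numbered 2143 without a batch term, and other pathway genes called higher numbered 0 without it and 5 in batch A alone. The TNFRSF10A to TNFRSF10B ratio passed with a pseudocount of 8 (-0.47, exact permutation, adjusted p 0.0286) and without non-senescent B1 (-1.61, adjusted p 0.0286), and ranged from -1.61 to -0.995 without 1 library. TNFRSF10B to TNFRSF10D was -0.21 in batch B alone. Signs turned for TNFRSF10D (-0.24 with a pseudocount of 0.1, -0.74 in batch A alone, -0.040 by edgeR, -0.27 to 0.15 without 1 library, below 0 without senescent B2 or any non-senescent library of batch B), TNFRSF1A (-0.018 in batch B alone, -0.029 to 0.50 without 1 library, below 0 without non-senescent B1 or B4 or senescent B1) and TNFRSF21 (-0.58 in batch A alone; its call was lost in 6 of 12 fits without 1 library and in 7 of 12 other settings, which were batch A alone, same-total scaling, no batch term, the replicate block, edgeR, DESeq2 and no filter). Other pathway calls were lost in batch A alone (TRAF2, BID, CYLD), in each batch alone and with a pseudocount of 8 (TNFRSF11B) in batch B alone and without the filter (CASP10) or without a batch term (CASP10, TNFSF12, TNFRSF11B, CYLD, OTULIN). The cause was not tested.

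Samples with the same number did not deviate together over genes (correlations of -0.05 to 0.02), and the main fit did not pair them. In batch A, with 2 libraries per group, both numbers give the same correlation by construction. A correlation near 0 cannot show that samples were not handled in pairs. With a replicate block TNFSF10 stayed at 1.41 (limma adjusted p 4.54e-04), 3211 genes were called, members called higher numbered 1 and lower 0, and the ratios were unchanged in size (-0.63, 0.26 and -1.28).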
